A study of Mus musculus with 2 samples.

Results

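The genes described here encode the transforming growth factor beta (TGF-beta) ligands Tgfb1, Tgfb2 and Tgfb3, the receptors Tgfbr1, Tgfbr2 and Tgfbr3, and the latent TGF-beta binding proteins Ltbp1, Ltbp2, Ltbp3 and Ltbp4. They were chosen by name, with earlier results of these data known. Every probe set whose platform annotation gave exactly 1 gene symbol, that of one of these genes, was read. This gave 24 probe sets for 10 of the 18193 genes with a name of their own on the array. The study compared uterine stromal cells of mice on day 4 of pregnancy. Hand2-null mice carried a floxed Hand2 gene crossed with PRcre, in which the progesterone receptor locus drives Cre recombinase, so that Cre can act in any uterine cell that uses this locus. Control mice carried floxed Hand2, and the mixed background given for both genotypes (C57BL/6, SV129) names Prcre as well, so the labels do not settle whether controls carried the Cre allele. RNA was pooled over mice of a genotype (the design text says 5 of each, the extraction notes 4), and the age of the mice was not given. Each genotype was read on 1 array, so there was no replicate, no test and no error of a difference, and all values compare these pools. Pooled RNA of an isolate also cannot tell fewer cells of a type from less RNA per cell.

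TGF-beta ligands are made as precursors whose propeptide stays bound to the mature dimer and keeps it latent. Latent TGF-beta binding proteins attach this complex to fibrillin microfibrils and fibronectin in the extracellular matrix, from which integrins and proteases release the active ligand. The free ligand binds TGFBR2, which recruits and phosphorylates TGFBR1, and TGFBR1 phosphorylates SMAD2 and SMAD3. TGFBR3 (betaglycan) presents ligand to the signalling receptors, above all TGF-beta 2. HAND2, a stromal factor of the basic helix-loop-helix class, binds E-box sequences in DNA. In the uterus TGF-beta signalling is known for its part in stromal matrix, decidualization and the smooth muscle wall.

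Signals were deposited as MAS5 values on a linear scale. The floor, below which signals were not compared, was the 60th percentile of each array, 67.5 in the Hand2-null array and 64.2 in the control array. A log2 ratio is always Hand2-null minus control, with a value under the floor set to the floor. Each gene was represented by its brightest probe set, by the mean of the log2 signals, and counted as measured when 1 array or both put that probe set at or above the floor. Hand2 itself, read by probe set 1436041_at, gave 38.5 in the Hand2-null array and 1545 in the control array, at least 22.9-fold lower. The labelled cell type was checked with 15 stromal markers, and all of them cleared the floor in both arrays. The isolates held transcripts of other cells too, since in the control array 17 of 18 measured epithelial, 13 of 13 endothelial and 12 of 12 macrophage and leukocyte markers reached the floor. Different probe sets of the same gene disagreed in log2 ratio with a pooled standard deviation of 0.19 over 3665 genes. It was taken within the same arrays, so it leaves out errors shared by the probe sets of a gene and variation between mice.

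All 8 measured genes of this family were higher in Hand2-null cells, by a modest amount, and 0 were lower. Their folds lay between 1.15 and 1.60, and their median log2 ratio was 0.41, against -0.03 over all 10371 measured genes. A ratio above 0 was found in 44.7% of all measured genes and a ratio below 0 in 55.3%. None of the 8 was at least 2-fold higher, where 1.99% of all measured genes were, and 0 were at least 2-fold lower, where 0.742% were. At a fold of 1.5 or more, 2 of the 8 were higher and 0 lower, against 6.21% and 3.33% of all measured genes. The probe sets that stood for the 8 genes cleared both floors, so none entered through the Hand2-null array alone. Tgfb1 and Ltbp2 stayed under the floor in both arrays. Of the 24 probe sets 11 cleared both floors, and all 11 were higher in the Hand2-null array, against 44.9% of all probe sets with a single gene name that cleared both. A further 2 reached the floor in the Hand2-null array alone, so their direction was fixed by the floor.

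**Figure D1:**
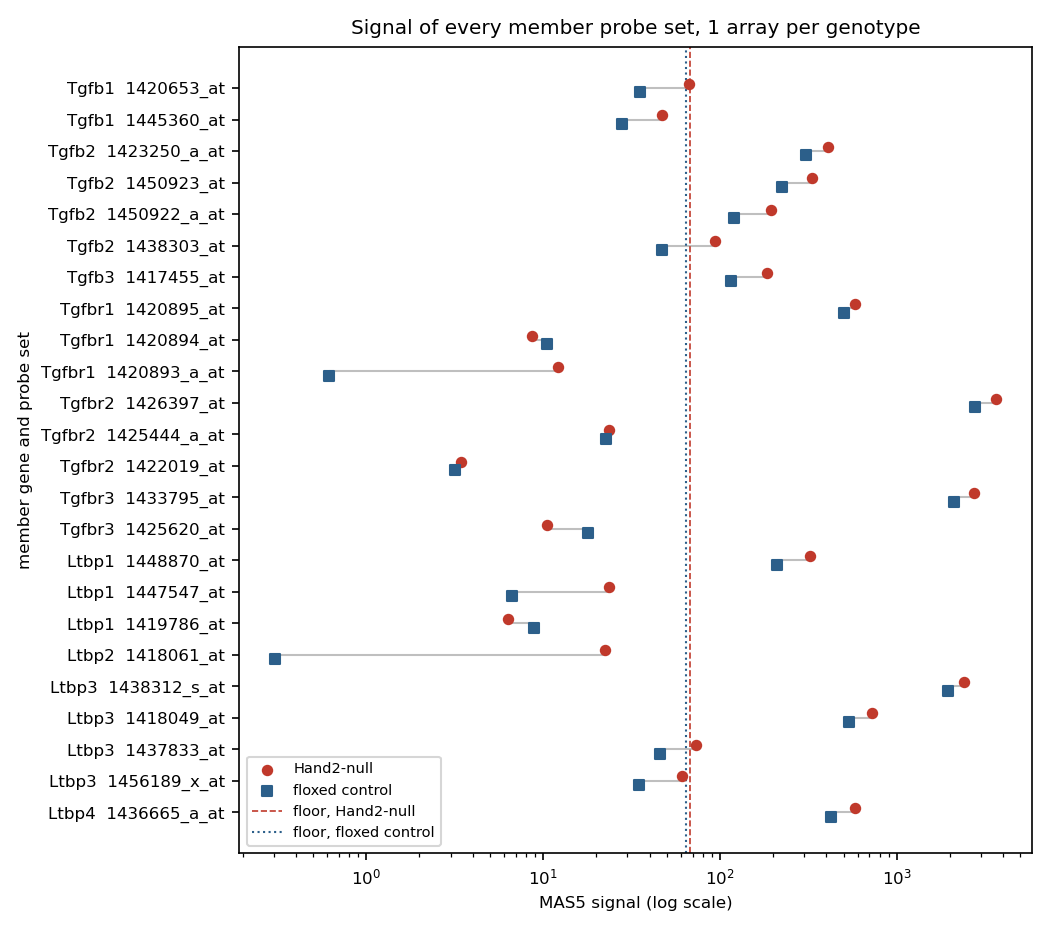
MAS5 signal of each of the 24 probe sets (log axis) in the Hand2-null array (circles) and the floxed control array (squares), with the floor of each array as a vertical line. Right of the floors every circle lies right of its square, while left of them the gaps vary in size and direction, down to a control signal of 0.306 for Ltbp2.

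The promoters of the family were read beside the values because HAND2 binds E-boxes and the measured genes lay on the same side. RefSeq promoter sequences (GRCm38.p6) matched 8 of the 10 genes with 12 start sites, and the 250 bases before each start were searched. Tgfb3 and Tgfbr3, both measured, had no sequence. The 8 include Tgfb1 and Ltbp2, which were not measured, so the counts below are not counts of the genes with higher signals. The windows of Tgfb2, of Tgfbr2 and of both Ltbp1 starts are shown 5' to 3' as examples of a ligand, a receptor and a binding protein, with each E-box CANNTG in capitals.
Tgfb2, chr1:186705990-186706239, minus strand: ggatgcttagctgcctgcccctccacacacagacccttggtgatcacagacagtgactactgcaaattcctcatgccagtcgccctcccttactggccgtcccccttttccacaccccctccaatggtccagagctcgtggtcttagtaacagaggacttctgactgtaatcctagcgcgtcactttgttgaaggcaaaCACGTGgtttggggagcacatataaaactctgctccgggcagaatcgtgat
Tgfbr2, chr9:116175364-116175613, minus strand: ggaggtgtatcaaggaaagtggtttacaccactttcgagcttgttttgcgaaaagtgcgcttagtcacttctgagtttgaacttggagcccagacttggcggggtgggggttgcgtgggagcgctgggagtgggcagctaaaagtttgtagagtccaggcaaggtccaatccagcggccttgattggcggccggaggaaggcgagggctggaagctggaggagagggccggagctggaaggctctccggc
Ltbp1, chr17:75005279-75005528, plus strand: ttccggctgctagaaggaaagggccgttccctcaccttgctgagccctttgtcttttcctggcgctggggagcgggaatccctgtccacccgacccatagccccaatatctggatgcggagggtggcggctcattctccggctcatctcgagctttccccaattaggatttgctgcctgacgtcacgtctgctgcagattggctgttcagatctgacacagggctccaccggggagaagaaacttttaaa
Ltbp1, chr17:75178531-75178780, plus strand: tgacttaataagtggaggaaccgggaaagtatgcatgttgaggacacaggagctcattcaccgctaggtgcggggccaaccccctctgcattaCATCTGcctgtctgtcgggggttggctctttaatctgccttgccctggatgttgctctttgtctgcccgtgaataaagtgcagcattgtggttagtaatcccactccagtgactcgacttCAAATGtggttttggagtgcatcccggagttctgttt
The Tgfb2 window held the E-box cacgtg with its first base 51 bases before the start. The Tgfbr2 window and that of the upstream Ltbp1 start held none, and the downstream Ltbp1 window held catctg at 157 and caaatg at 37 bases before the start. In all, 8 of the 12 windows held CANNTG, against 66.2% of the 32851 windows of all genes. The windows of 2 Ltbp4 starts overlapped for most of their length, and both counted among the 8. By gene, 6 of the 8 held CANNTG, Ltbp2 among them, with no such share taken over all genes. CATCTG, a form of CANNTG that HAND2 binds together with E proteins, was in 2 of the 12 windows on either strand, those of the downstream Ltbp1 start and of Ltbp2, against 14.4% of all windows. CAGACA, which holds the letters of a SMAD binding element, was found on either strand in 3 of the 12 windows, those of Tgfb2, the downstream Tgfbr1 start and the downstream Ltbp1 start, against 17.1% of all windows. None of the 4 matches to CAGACA shared bases with a CANNTG. These are letter matches in short windows, and no binding was measured.

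Among the ligands, Tgfb2 gave the most complete reading. By probe set 1423250_a_at the signal was 410.1 in the Hand2-null array and 306.1 in the control array, a log2 ratio of 0.42 or 1.34-fold. By 1450923_at the signals were 331.9 in the Hand2-null and 223.6 in the control array, a log2 ratio of 0.57. By 1450922_a_at they were 194.6 in the Hand2-null and 120.7 in the control array, a log2 ratio of 0.69. The fourth probe set, 1438303_at, reached the floor in the Hand2-null array alone, at 93.9 against 47.2 in the control array, which makes it at least 1.46-fold higher. The 3 probe sets of Tgfb2 that cleared both floors thus lay on the same side, and their log2 ratios had a standard deviation of 0.13 between probe sets of the same pools. Tgfb3, the ligand known from palate closure and scarless repair, had a signal of 184 in the Hand2-null array and 115.4 in the control array by its single probe set, 1417455_at. Its log2 ratio of 0.67, or 1.60-fold, was the highest among the 8 measured genes, although Ltbp1 lay above it with a pseudo-signal (0.52 against 0.49) or a floor at the 75th percentile (0.63 against 0.18), and 5.09% of all measured genes had a ratio as high. Among the 8 genes of the family, the control signal of Tgfb3 was the nearest to the floor.

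Tgfb1, the ligand best known from immune regulation and fibrosis, was not measured. By probe set 1420653_at the signal was 67.2 in the Hand2-null array, just under the floor of 67.5, and 35.3 in the control array. Its other probe set, 1445360_at, had 46.8 in the Hand2-null and 27.8 in the control array. Both signals were higher in the Hand2-null array, but none reached its floor, so no fold is given.

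The 3 receptors were all measured and all higher in Hand2-null cells, with log2 ratios from 0.20 to 0.40. Tgfbr2, the type II receptor that binds ligand first, had a signal of 3635 in the Hand2-null array and 2761 in the control array by 1426397_at, a log2 ratio of 0.40 or 1.32-fold. Tgfbr3, the betaglycan co-receptor, had 2722 in the Hand2-null and 2110 in the control array by 1433795_at, a log2 ratio of 0.37 or 1.29-fold. Tgfbr1, the type I receptor kinase, had 579.1 in the Hand2-null and 505.5 in the control array by 1420895_at, a log2 ratio of 0.20 or 1.15-fold. The ratio of Tgfbr1 was close to the standard deviation of 0.19 between probe sets, and 21.6% of all measured genes had a ratio as high. For Tgfbr2 and Tgfbr3 that share was 11.2% and 12.2%. Each receptor rested on a single measured probe set, since the other 2 of Tgfbr1, the other 2 of Tgfbr2 and the other 1 of Tgfbr3 were under the floor on both arrays, with no signal above 23.5 in the Hand2-null array and 22.8 in the control array. Among these dim probe sets those of Tgfbr3, at 10.5 in the Hand2-null and 18.0 in the control array, and 1420894_at of Tgfbr1, at 8.61 in the Hand2-null and 10.6 in the control array, ran the other way.

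The latent TGF-beta binding proteins were higher in the Hand2-null array wherever they were measured. Ltbp1, which anchors latent TGF-beta to the matrix, had a signal of 324.8 in the Hand2-null array and 209.5 in the control array by 1448870_at, a log2 ratio of 0.63 or 1.55-fold, a ratio reached by 5.52% of all measured genes. Ltbp4, known for elastic fibre assembly, had 578.1 in the Hand2-null and 425.7 in the control array by its single probe set, 1436665_a_at, a log2 ratio of 0.44 or 1.36-fold. Ltbp3, which binds TGF-beta efficiently and is known from bone growth and tooth enamel, had 2400 in the Hand2-null and 1958 in the control array by 1438312_s_at, a log2 ratio of 0.29 or 1.23-fold. A further probe set of Ltbp3 that was above the floor in both arrays, 1418049_at, gave 727.0 in the Hand2-null and 536.1 in the control array, a log2 ratio of 0.44. By 1437833_at Ltbp3 was at 72.8 in the Hand2-null array and, under the floor, at 45.6 in the control array, at least 1.13-fold higher. The remaining Ltbp3 probe set, 1456189_x_at, was under both floors at 61.0 in the Hand2-null and 34.8 in the control array. The 2 probe sets of Ltbp3 that cleared both floors thus lay on the same side, while the other 2 of Ltbp1 were under the floor with 23.6 and 6.33 in the Hand2-null array against 6.64 and 8.83 in the control array. Ltbp2, which sits in microfibrils without binding latent TGF-beta, had 22.3 in the Hand2-null and 0.306 in the control array by its single probe set. Both of these Ltbp2 signals were far under the floor, so the gene was not measured and no fold is given.

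**Figure D2:**
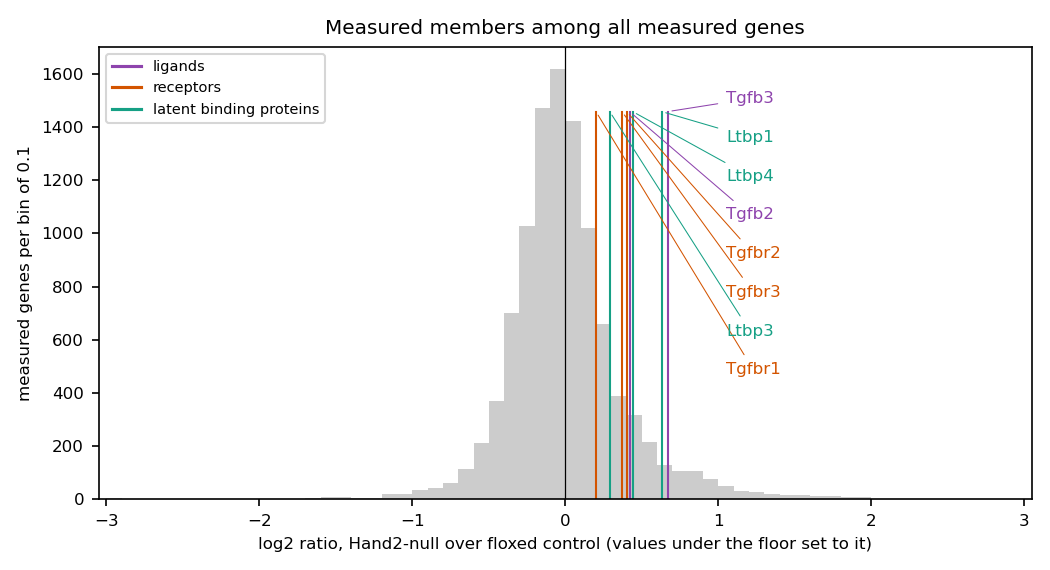
Number of measured genes per bin of 0.1 in log2 ratio, Hand2-null over floxed control (grey bars, with ratios beyond the axis in the outermost bins), and the ratio of each measured family gene (coloured lines). The 8 lines lie between 0.20 and 0.67, to the right of the median of all genes at -0.03 and inside their middle 95%, which ends at 0.93.

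Taken singly, none of the 8 ratios lay outside the common range. Over all measured genes the middle 95% of log2 ratios ran between -0.66 and 0.93, and among genes within 0.5 log2 units of the mean signal of each family gene, all 8 ratios were inside the middle 95%. For Tgfb3 that range was -0.73 to 0.97 over 2602 genes, for Ltbp1 it was -0.65 to 0.90 over 2773, and for Tgfbr2 it was -0.49 to 1.10 over 301. What the 8 genes shared was the side of 0 on which they lay, and with 1 array of each genotype the spread between mice of this count is not known.

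The rest of the pathway was read from lists of known genes, also drawn up after earlier results of these data had been seen. For every pathway and marker list below, the shares over all measured genes were 44.7% higher and 55.3% lower. At 2-fold or more these shares were 1.99% higher and 0.742% lower. Of 16 measured Smads and nuclear partners, which carry the signal from the receptors to DNA, 9 were higher and 7 lower in the Hand2-null array, and 0 differed 2-fold or more. Their log2 ratios had a median of 0.07. The sign of that median turned to -0.02 when probe sets that can recognise several transcripts were left out. Tgif2, a corepressor of SMAD2 and SMAD3, had signals of 318 in the Hand2-null and 472 in the control array, a log2 ratio of -0.57. The inhibitory Smad6 and Smad7 were both at 0.39, with 232 in the Hand2-null and 177 in the control array for Smad7, itself a feedback target of TGF-beta. The corepressor Ski was at 0.30 and 0.31 by its probe sets, and the coactivator Ep300 was at 0.27. The receptor-activated Smad2 and Smad3 and the common mediator Smad4, named after their values were seen, were at 0.15, -0.08 and 0.14, and a second probe set of Smad2 was at -0.03.

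Genes linked to processing of the precursor or release of the latent ligand were read next, whether they favour these steps or, like Emilin1, restrain them. Of 19 measured, 14 were higher and 5 lower, and the median of their log2 ratios was 0.21. The control signal of 18 of the 19 reached the floor, and the direction of the remaining gene was fixed by it. A 2-fold difference was reached upwards by 0 and downwards by 1. That gene was Itgb8, whose product pairs with the alpha-v integrin chain to activate latent TGF-beta, with a signal of 230 in the Hand2-null array and 639 in the control array, 2.78-fold lower by its single measured probe set. Itgav, the alpha-v chain, lay on the other side, at 1775 in the Hand2-null and 1330 in the control array, a log2 ratio of 0.42, as did Itgb5 at 0.40, both named after their values were seen. Of the other genes in this list, Itgb3 and Pcsk5 were lower, at -0.53 and -0.50, and Itgb1 was at 0.16. They too were named after their values were seen. Pcsk6, a proprotein convertase, was at 0.76, with a control signal of 72.0 near the floor. The membrane protease Mmp14 was at 0.69, with 3180 in the Hand2-null and 1975 in the control array and further probe sets at 0.44 and 0.70. The plasminogen activator Plat was at 0.66, or 1.5 by a second probe set, and Emilin1, a microfibril protein that restrains processing of the TGF-beta precursor, was at 0.63. Furin, the convertase best known for cleaving that precursor, was at -0.10 and was also named after its value was seen.

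Receptor modulators and matrix antagonists were divided. Of 22 measured, 12 were higher and 10 lower, and their log2 ratios had a median of 0.00. A 2-fold difference was reached upwards by 2 and downwards by 1. Aspn, a small matrix proteoglycan that binds TGF-beta, had 391 in the Hand2-null and 104 in the control array, 3.77-fold higher. Htra3, a secreted serine protease of the decidua, had 1015 in the Hand2-null and 477 in the control array, 2.13-fold higher. Fst, which binds activins, was 3.21-fold lower, with 235 in the Hand2-null and 754 in the control array. Lrg1, which modifies TGF-beta receptor signalling in endothelium, was at -0.84, and Smurf1, a ubiquitin ligase that acts on Smads and receptors, was at 0.58 with a control signal of 64.6, close to the floor.

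The matrix partners of the latent complex were higher in most cases. Of 15 measured microfibril and elastic fibre genes, 11 were higher and 4 lower, and their log2 ratios had a median of 0.32. Emilin1, already read among the processing genes, is in this list too. A 2-fold difference was reached upwards by 3 and downwards by 0. Eln, elastin, had 406 in the Hand2-null and 174 in the control array, 2.34-fold higher. Fbln1, a fibulin of the matrix, was 2.11-fold higher with 986 in the Hand2-null and 467 in the control array, and Mfap4, a microfibril-associated protein, was 2.03-fold higher. Lox, which crosslinks elastin and collagen, was at 0.88 and 0.95 by its probe sets, and Fbn2, a fibrillin to which the latent complex can be anchored, was at 0.80 and 0.57. Fn1, fibronectin, was at -0.10 and 0.03 by its probe sets and was named after its value was seen.

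**Figure D3:**
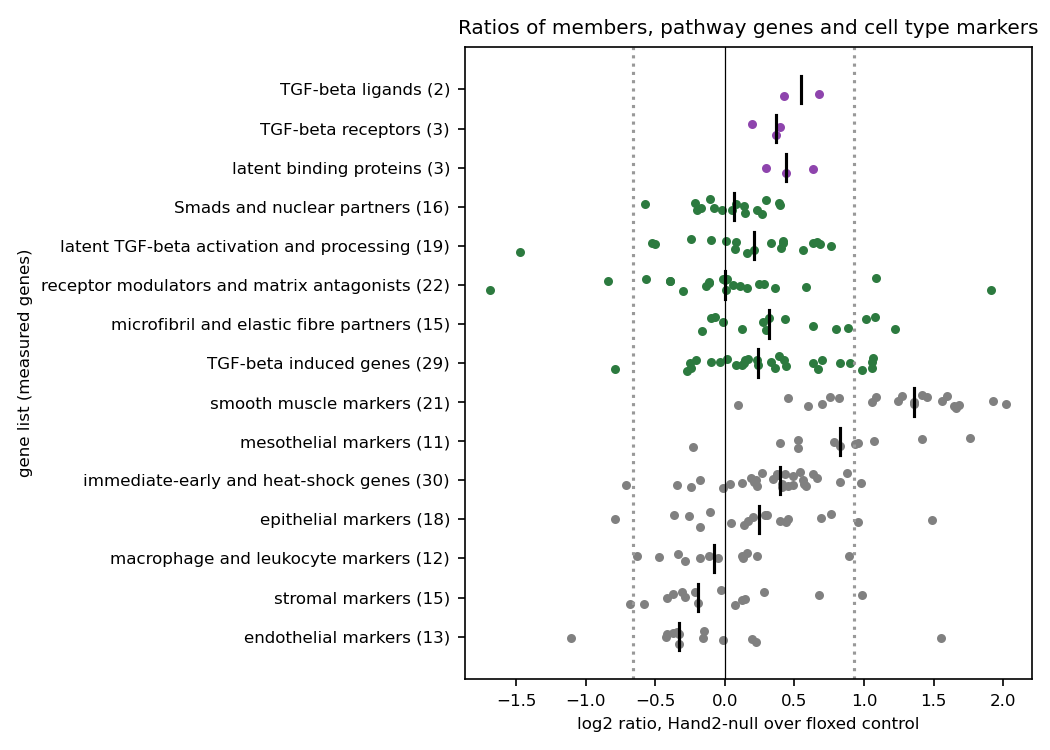
Log2 ratio, Hand2-null over floxed control, of each measured gene (points) in the family, 5 pathway lists and 7 lists of cell type markers and stress genes, with the list median as a black bar and the middle 95% of all measured genes between dotted lines. Medians of the family were 0.55 for ligands, 0.37 for receptors and 0.44 for binding proteins, against 1.36 for smooth muscle markers and -0.20 for stromal markers.

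Genes known to be induced by TGF-beta in other settings were read as the last list. Of 29 measured, 22 were higher and 7 lower, and their log2 ratios had a median of 0.24. In the control array 28 of the 29 reached the floor, and the direction of the remaining gene was fixed by it. A 2-fold difference was reached upwards by 3 and downwards by 0. The 3 were Tgfb1i1, a focal adhesion protein, with 733 in the Hand2-null and 351 in the control array, Tagln, an actin-binding protein of smooth muscle, with 6404 in the Hand2-null and 3076 in the control array, and the cell cycle inhibitor Cdkn1a, each at a log2 ratio of 1.06. Col1a1, a chain of type I collagen, was at 0.98 and Spsb1 at 0.90. Further known targets, named after their values were seen, lay on either side. Ccn2, connective tissue growth factor, had 987 in the Hand2-null and 1709 in the control array, a log2 ratio of -0.79, and Tgfbi, a matrix protein named for its induction by TGF-beta, was at -0.25 with other probe sets from -0.17 to 0.06. Ccn1, a relative of Ccn2, was at 0.44 with its other probe sets between 0.33 and 0.55. The list holds 2 smooth muscle markers, and without them 20 of 27 were higher, with a median of 0.23. Of those 27, 26 reached the floor in the control array. The same list repeats genes read in other lists, among them Smad7, Skil, Tgif1, Pmepa1, Thbs1, Fn1, Junb, Col1a1, Col1a2 and Col3a1. These lists are therefore not separate readings.

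Transcripts of other cell types moved beside these values. All 21 measured smooth muscle markers of 22 were higher in the Hand2-null array, 15 of them by 2-fold or more. Their median log2 ratio was 1.36, with a summed signal of 62254 in the Hand2-null and 26737 in the control array. The brightest by mean log2 signal were Acta2, Mylk, Myl9 and Tagln, at 0.70, 1.24, 1.36 and 1.06, while a second probe set of Acta2 was at 1.72 and the others of Mylk were at 1.06 and 1.86. In the control array 16 of the 21 reached the floor, and the direction of the other 5 was fixed by it. Of 11 measured mesothelial markers of 12, 10 were higher, with a median of 0.82 and a summed signal of 3282 in the Hand2-null and 1948 in the control array. Only 6 of these 11 reached the floor in control cells, and the direction of the other 5 was fixed by it. Of 30 genes of the immediate-early and heat-shock classes, known to respond to tissue handling, 25 were higher, with a median of 0.40 and a summed signal of 84319 in the Hand2-null and 70310 in the control array. Epithelial markers had a median of 0.24 over 18 genes, 13 higher and 5 lower, in a range of -0.79 to 1.49. The direction of the epithelial gene under the floor in the control array was fixed by it. Macrophage and leukocyte markers had a median of -0.08 over 12, 5 higher and 7 lower, in a range of -0.63 to 0.89. For endothelial markers it was -0.33 over 13, 3 higher and 10 lower, in a range of -1.11 to 1.55. Krt19 and Krt7 stood in both the mesothelial and the epithelial list, and Dcn among both the stromal markers and the matrix antagonists. The 15 stromal markers had a median of -0.20, with 6 higher and 9 lower, and a summed signal of 64701 in the Hand2-null and 60451 in the control array. Averaged over probe sets, the stromal median was -0.08. The brightest, Col3a1, Col1a2, Dcn and Vim, were at 0.12, 0.15, 0.28 and -0.29. Their other measured probe sets lay above these, Col3a1 at 0.56, Col1a2 at 0.72 and 1.29, Dcn at 0.53 and Vim at -0.14 and -0.04. The part of these cell types and of handling in the higher signals of the TGF-beta family was not tested.

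**Figure D4:**
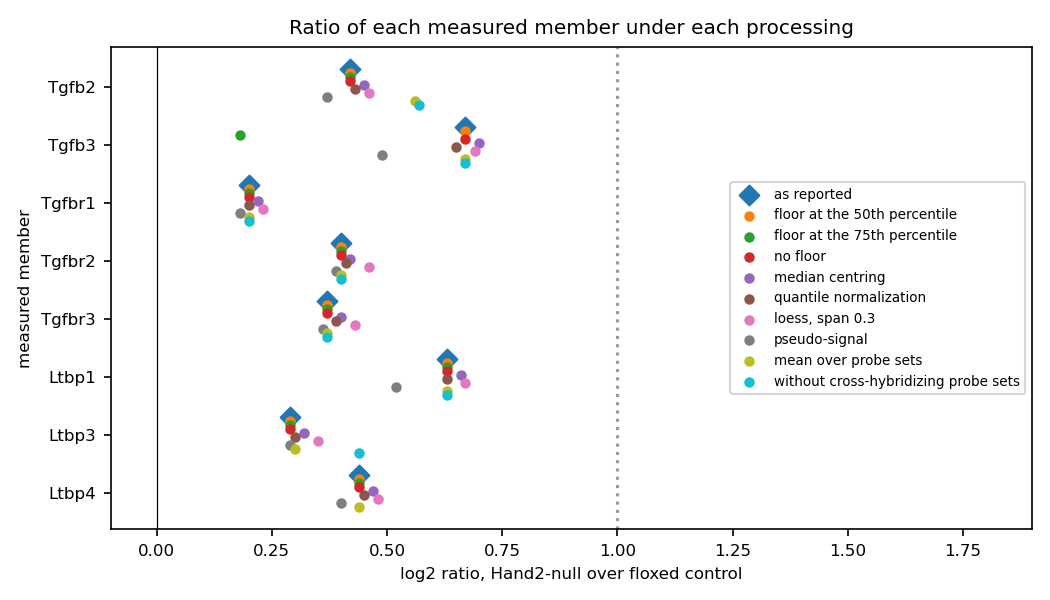
Log2 ratio of each measured family gene, Hand2-null over floxed control, as reported (diamonds) and under 9 other ways of processing (circles), with the 2-fold threshold as a dotted line at 1. All points lie above 0 and under 1, from 0.18 to 0.70, and the widest range is that of Tgfb3.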

How the data were processed

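The deposited table holds array intensity on a linear scale. The submitters' processing notes name MAS5 and version 1 of Affymetrix Expression Console. With 2% of values cut at either end both arrays averaged 150.0, so each was scaled to a common mean by the authors. No genome build is given with the array values. Of 45101 probe sets 64 controls were left out, and of the rest 34945 had 1 gene in the platform annotation, dated 2016, 932 several and 9160 none listed. Log2 ratios, the floor at the 60th percentile, the choice of the brightest probe set and the 2-fold threshold were applied to all genes. No test was made, with 1 array per genotype. The members, lists and rules were chosen with earlier results of these data known. Named pathway genes were the 5 with the largest ratio in size per list, and up to 4 of the brightest markers. Ctgf and Cyr61 were read as Ccn2 and Ccn1. Of the list entries 8 had no probe set with a single gene name and were not analysed here. The alternatives were 3 floors, 3 scalings, a pseudo-signal, averaging over probe sets, omitting probe sets ending in _s_at, _x_at or _a_at, and thresholds of 1.5-fold and 3-fold. The procedure was tested on simulated data. The planted changes were larger than 2-fold and lay in genes well above the floor. Small ratios like those of the TGF-beta family were therefore not covered. Precision is limited by the number of arrays. Python 3.11.15, numpy 2.4.6, pandas 2.3.3, statsmodels 0.14.6 and matplotlib 3.10.9 were used.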

Additional observations from a re-analysis of the deposited data

How the results depend on the processing

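The 8 measured genes kept a positive log2 ratio under each of the 9 floors, scalings and probe set rules that gave a value, and their median stayed between 0.38 and 0.46. Without probe sets ending in _s_at, _x_at or _a_at, Ltbp4 had no value and the count was 7 of 7. No gene of the family was at least 2-fold lower under any alternative. With no floor 1 gene, Ltbp2, was at least 2-fold higher, at a log2 ratio of 6.18 that rests on a control signal of 0.306, and at a threshold of 1.5-fold 2 genes were higher, Tgfb3 and Ltbp1. Raising the floor to the 75th percentile gave Tgfb3 a ratio of 0.18, a lower bound since its control signal was then under the floor. Tgfb1 had a ratio of 0.93 once the floor was lowered to the 50th percentile or dropped. The median of the Smads and nuclear partners turned to -0.02 without the probe sets named above, and those of the other pathway lists did not turn sign. The mesothelial median was 1.12 with that lower floor and 1.10 with none. The median of all measured genes stayed between -0.04 and -0.01. No paired analysis was possible because each genotype had 1 array, and for the same reason no array could be left out. Dim probe sets limit what can be read for Tgfb1 and Ltbp2.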
